A study of Caenorhabditis elegans with 2 samples.

Results

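The dhs genes of Caenorhabditis elegans encode short-chain dehydrogenases, and the peaks of a tagged transcription factor at their promoters were described. All nuclear protein-coding genes of Ensembl WBcel235 whose name is dhs- followed by a number were taken, which gave 30 of 19973 genes. Chromatin immunoprecipitation followed by sequencing (ChIP-seq), which maps where a protein sits on DNA, was done on whole L2 larvae, an early larval stage, with both sexes pooled and chromatin broken by sonication. There was 1 group of 2 biological replicates and no second condition. Both came from strain OP178, of genotype unc-119(ed3) III; wgIs178, which stably makes SKN-1 fused at its C terminus to GFP-FLAG. The antibody label reads skn-1, while the free-text description names PHA-4, so the labels disagree on the protein. The labels do not give the promoter that drives the fusion, the cells that make it or its copy number.

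Short-chain dehydrogenases bind NAD(H) or NADP(H) and oxidise or reduce alcohol and carbonyl groups of small molecules. Their substrates include retinoids, steroids, fatty acyl chains, sugars and reactive carbonyls. In C. elegans, members of the family take part in lipid droplets, in the synthesis of steroid hormones and in the trimming of pheromone side chains in peroxisomes. SKN-1, the worm relative of mammalian Nrf factors, turns on genes that neutralise electrophiles and oxidants, and PHA-4 is the forkhead factor of the pharynx.

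The name of the family was compared with RefSeq products. All 30 members had one, and for 25 it held the words dehydrogenase, reductase or short chain. For dhs-13, dhs-14, dhs-15, dhs-19, dhs-22, dhs-23 and dhs-26 the product only writes out the dhs class name. Those of dhs-5 and dhs-27 read putative oxidoreductase with the gene's own name. For these members the product is no separate check of the family. The exceptions were dhs-7 and dhs-12, given as NAD(P)-binding proteins, dhs-3, given under its own name, dhs-31, given as C-factor, and dhs-30, given as a rhodanese domain protein. The longest coding sequences of the members ran from 243 to 435 codons, with a median of 314. The members lie on all nuclear chromosomes, with 12 on V, 6 on X, 4 each on I and II, and 2 each on III and IV.

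The data are lists of peaks in build ce11. The optimal list, which passed the authors' reproducibility filter (IDR), held 872 peaks. The relaxed lists held 13302 peaks for the pooled libraries, 24771 for replicate 1 and 28630 for replicate 2, and they include background by design. Each peak has a deposited signal, the caller's enrichment on the scale of its own list, which ranks peaks within that list and has no replicate error. Read depth is unknown here. A gene was counted when a summit lay from 1000 bp upstream to 200 bp downstream of any of its annotated 5' ends. No set test was made: each count of dhs genes is a description beside the share of all protein-coding genes counted in the same way.

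The dhs genes with optimal peaks in their promoters were dhs-9 and dhs-12. That is 2 of 30, or 6.67%, against 777 of all 19973 protein-coding genes, or 3.89%. With so few members, shares of this size are not told apart, and the count is not a result about the family. The peaks at both genes were among the stronger ones of the list, and both genes were also reached by the 872 strongest peaks of replicate 1 alone and of replicate 2 alone. In either replicate's list, dhs-9 and dhs-12 were the 2 members with the highest-ranked promoter summits. The optimal list passed the reproducibility filter, so strong summits of these genes in both replicates follow in part from that choice.

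dhs-9, whose RefSeq product is a dehydrogenase/reductase of the SDR family, had 1 optimal peak, at chrIII:5368251-5368590. Its summit lay 376 bp upstream of the single annotated 5' end, in the 921 bp gap below szy-2, a gene on the same strand. No other protein-coding gene had this summit in its promoter. The peak ranked 129 of 872 in the optimal list, with a signal of 86.0. The summit ranked 217 of 24771 in replicate 1, with a signal of 49.8, and 112 of 28630 in replicate 2, with a signal of 32.2. The deposited q was 0.00147 in the pooled list, 0.00117 in replicate 1 and 0.0100 in replicate 2, each the smallest q of its list. The replicate summits stood 15 bp apart. Both replicates had a strong summit at nearly the same position, as the reproducibility filter favours, in a promoter shared with no other protein-coding gene.

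The 201 bases around the dhs-9 summit are shown because they hold the word bound by SKN-1. They are read on the plus strand of the RefSeq WBcel235 genome at chrIII:5368321-5368521, while dhs-9 runs on the minus strand. Capitals mark every match to the short SKN-1 word (A or G, then TCAT) on either strand, and to the full word, which is A or T, A or T, T, A or G, then TCAT.
dhs-9: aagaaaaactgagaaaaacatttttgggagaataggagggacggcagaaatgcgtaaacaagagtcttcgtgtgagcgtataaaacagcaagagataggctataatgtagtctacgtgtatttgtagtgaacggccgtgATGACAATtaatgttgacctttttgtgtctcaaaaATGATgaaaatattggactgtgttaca
The window held 1 full word, centred 42.5 bp from the summit, and 2 short words, 1 of them inside the full one. It held 1 match to the stricter PHA-4 word (TGTTTAC or TGTTTGC) and no GATA word (TGATAA). Among all 870 nuclear optimal summits the full SKN-1 word was present within 100 bp at 27.6%, the stricter PHA-4 word at 13.7% and the GATA word at 39.2%.

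dhs-12, given by RefSeq only as an NAD(P)-binding protein, had 2 optimal peaks. The upstream one spanned chrIV:10141972-10142311, ranked 65 of 872 with a signal of 115.3, and lay 313 bp upstream of the outermost annotated 5' end. It ranked 58 in replicate 1, with a signal of 83.3, and 146 in replicate 2, with a signal of 28.6, and the replicate summits stood 26 bp apart. The inner one spanned chrIV:10144504-10144843 and ranked 182 of 872 with a signal of 74.3. It ranked 160 in replicate 1, with a signal of 55.7, and 288 in replicate 2, with a signal of 21.9. Both peaks were present in both replicates, as the reproducibility filter favours, and the upstream one was the higher in each.

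The 2 dhs-12 peaks differ in how firmly they belong to the gene. The upstream summit lay between the divergent genes gst-2 and gst-4, which encode glutathione S-transferases, 81 bp upstream of gst-2 and 83 bp upstream of gst-4. It counted for all 3 genes, and both gst genes start closer to it than dhs-12 does. It reached dhs-12 only through transcript K08F4.9.2, which starts at 10142455 inside gst-4. The 3 annotated transcripts of dhs-12 start at 10142455, 10143983 and 10145249 and share a coding start at 10145251. RefSeq lists only the last of these 5' ends, from which the upstream summit is 3107 bp away. The inner summit lay 575 bp upstream of that 5' end, inside the first exon of transcript K08F4.9.3 and in an intron of K08F4.9.2. The other protein-coding promoter that held it was that of msp-38, a major sperm protein gene on the opposite strand, 934 bp away. With RefSeq 5' ends, an alternative chosen after seeing the data, dhs-12 was still counted, and through the inner peak alone. The map of summits around dhs-12 shows both peaks against the 3 annotated 5' ends.

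**Figure D1:**
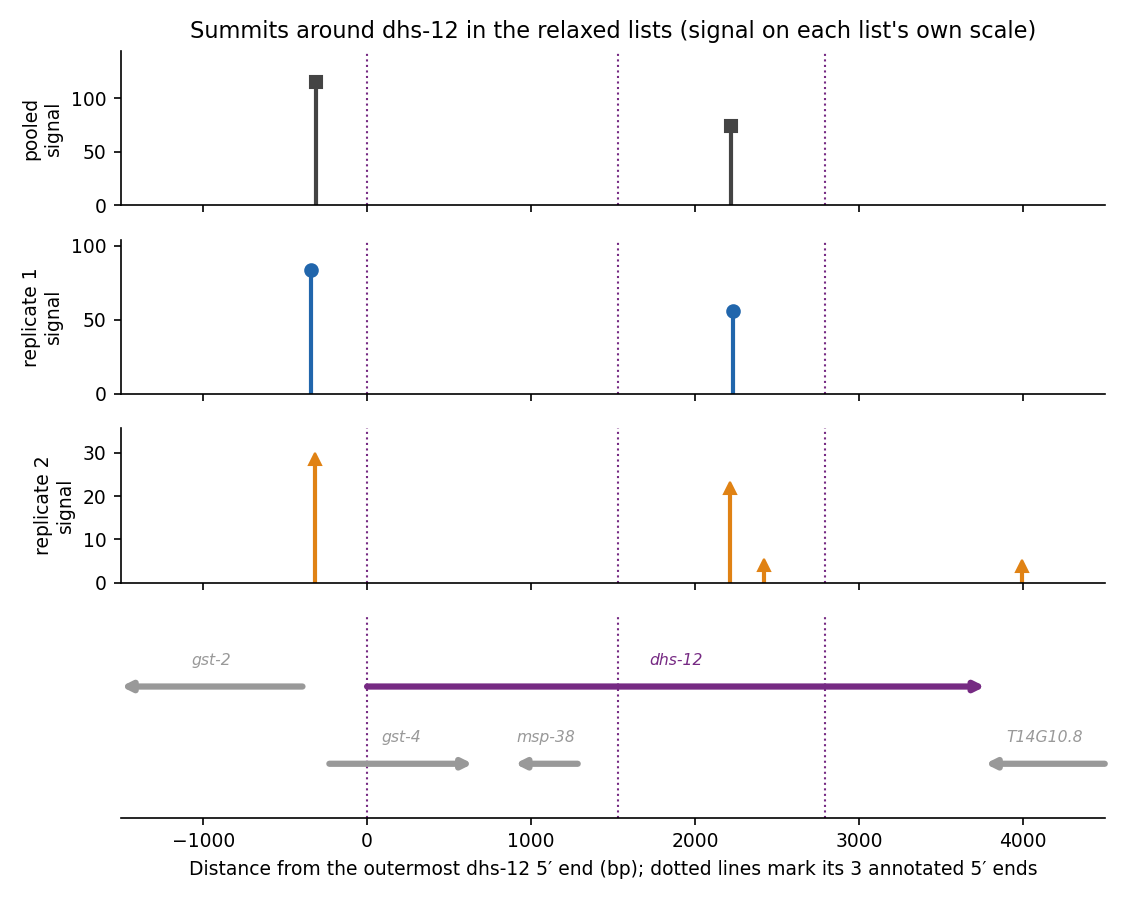
Signal of each summit (vertical axis, deposited value on the scale of its own list) against distance from the outermost dhs-12 5' end in bp (horizontal axis), for the pooled, replicate 1 and replicate 2 lists, with protein-coding genes as arrows. The upstream summit stands at 115.3, 83.3 and 28.6 in these lists and the inner one at 74.3, 55.7 and 21.9, with the last annotated 5' end of dhs-12 to the right of both.

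The intergenic stretch between gst-2 and gst-4 that holds the upstream summit, chrIV:10142062-10142224, and 25 bases at chrIV:10144683-10144707 near the inner summit are shown to compare their words. Both are plus strand, the strand of dhs-12, with capitals as above.
dhs-12 upstream: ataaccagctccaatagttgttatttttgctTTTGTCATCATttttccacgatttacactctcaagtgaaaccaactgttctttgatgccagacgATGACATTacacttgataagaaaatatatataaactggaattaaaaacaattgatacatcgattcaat
dhs-12 inner: catagaaaaATGATGACaacccttg
The upstream stretch held 2 full SKN-1 words, centred 18.5 and 45.5 bp from the summit, and 1 GATA word. The inner window of 201 bases held no full word, 4 short ones, 1 stricter PHA-4 word and no GATA word. Both stretches contain GTCATCAT, in which a pair of short words overlap, read here on the plus strand upstream and on the minus strand at the inner summit. The 25 inner bases surround this word, do not include the summit and hold 2 of the 4 short words of their window. The word GTCATCAT was picked after the sequences were seen. It was present within 100 bp of 96 of 870 optimal summits, or 11.0%, and in the 1201 bases around the outermost 5' end of 6.08% of all protein-coding genes. A word match describes the letters and does not show binding.

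Just outside the optimal count stood dhs-22 and dhs-8, one because of signal and the other because of distance. dhs-22, given by RefSeq only the written-out class name, had a pooled summit 8 bp upstream of its 5' end, at chrV:14421278-14421617. It ranked 1177 of 13302 in the pooled list with a signal of 38.7, below the lowest signal of the optimal list, 43.2. It ranked 1060 in replicate 1, with a signal of 28.9 and a q of 0.00802, and 1733 in replicate 2, with a signal of 12 and a q of 0.0170. Both replicates thus had the summit among their peaks with q at or under 0.05. Upstream of dhs-22 and on the same strand, pas-1, a proteasome alpha subunit gene, ends 126 bp away, and rpoa-12, an RNA polymerase I subunit gene, comes before pas-1. An optimal peak of rank 135 and signal 84.7 lay at the 5' end of rpoa-12, 1986 bp upstream of dhs-22, in the promoters of rpoa-12 and pas-1. The 201 bases around the dhs-22 summit held none of the words searched.

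dhs-8, given by RefSeq as an oxidoreductase of the SDR family, had an optimal peak at chrII:14496684-14497023 whose summit was 1172 bp upstream of its outermost 5' end, 172 bp beyond the promoter limit. The peak ranked 755 of 872 with a signal of 45.5 and fell in no protein-coding promoter. In replicate 1 a summit 1178 bp upstream had a signal of 36, and in replicate 2 the nearest was 1028 bp upstream with a signal of 13.0. Within the promoter limit dhs-8 had a pooled summit 960 bp upstream, of rank 2367 and signal 29.6, and one 143 bp upstream of an inner 5' end, of rank 10083. The peak of the summit at 960 bp overlaps the optimal peak. The replicate 2 summit at 1028 bp is nearer to that summit than to the optimal one. Among protein-coding genes, the nearest annotated 5' end to the optimal summit is that of dhs-8. The protein-coding gene on the other side of the 3575 bp gap is cysl-2, a cysteine synthase family gene. Its own promoter held an optimal peak of rank 70 and signal 110.8. The dhs-8 window is shown, plus strand at chrII:14496754-14496954, because it holds a full SKN-1 word 6.5 bp from the summit, part of the same overlapping pair as at dhs-12.
dhs-8: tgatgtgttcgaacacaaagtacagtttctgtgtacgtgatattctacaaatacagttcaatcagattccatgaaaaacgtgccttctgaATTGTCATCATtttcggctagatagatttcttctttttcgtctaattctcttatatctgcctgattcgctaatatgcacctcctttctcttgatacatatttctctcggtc

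**Figure D2:**
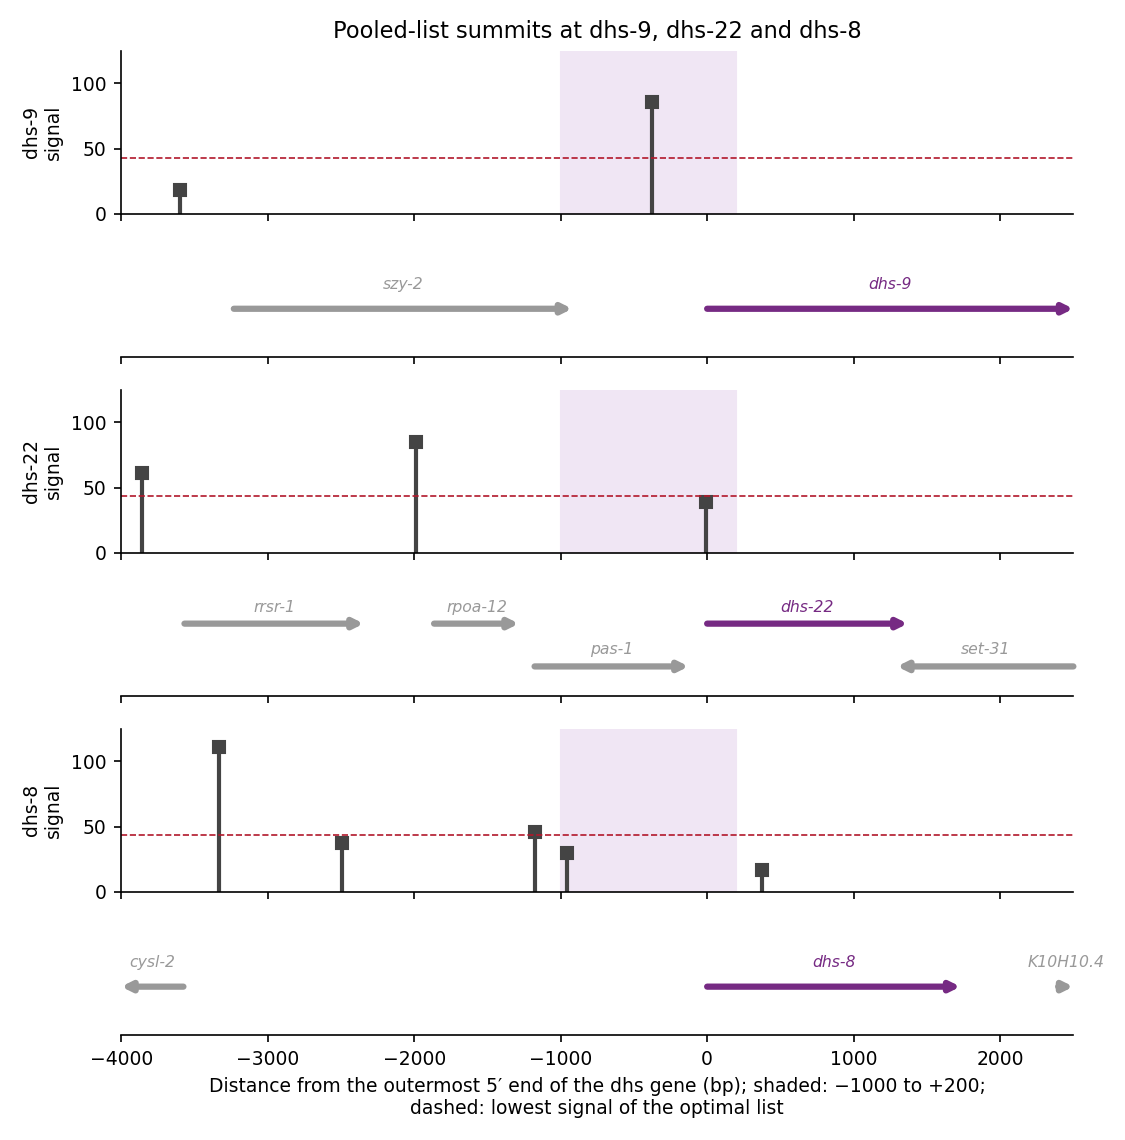
Signal of pooled-list summits (vertical axis, deposited value) against distance from the outermost 5' end of dhs-9, dhs-22 and dhs-8 in bp (horizontal axis), with protein-coding genes as arrows, the promoter around that 5' end shaded and the lowest signal of the optimal list, 43.2, dashed. The dhs-9 summit at 86.0 is inside the promoter and above that line, the dhs-22 summit at 38.7 is inside and below it, and the dhs-8 summit at 45.5 is above it and outside.

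In each relaxed list most dhs genes had a promoter summit. The pooled list gave 17 of 30, or 56.7%, against 29.2% of all protein-coding genes. Replicate 1 gave 18 of 30, against 41.0%, and replicate 2 gave 19, or 63.3%, against 43.5%. A summit in all 3 relaxed lists was found for 15 of 30 members, against 22.4% of all genes. The share of members was above that of all genes in each list, although most of the members' strongest summits had a q above 0.05. Kept to peaks with q at or under 0.05, each list gave 4 members, or 13.3%, against 7.70% of all genes in the pooled list, 9.14% in replicate 1 and 10.5% in replicate 2. In the pooled list and in replicate 1 these were dhs-3, dhs-9, dhs-12 and dhs-22. In replicate 2 dhs-13, whose summit there had a q of 0.0242 and a signal of 10.9, stood in place of dhs-3.

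Properties of the genes that move with such counts were chosen after seeing the data and measured beside them, and their part in the result was not tested. Genes with a gene-class name, as all members have, carried a pooled summit in 33.9% of cases, and genes of the members' own chromosomes in 28.1%, weighted by member. Among genes with a single annotated 5' end, 13 of 22 members had a pooled summit, or 59.1%, against 24.6% of all such genes. Among genes with several, 4 of 8 members had one, against 41.3%. In the replicate lists the members with several 5' ends gave 4 of 8 against 55.7% in replicate 1 and 4 of 8 against 58.6% in replicate 2. With 8 members, shares of this size are not told apart. Members with a single 5' end were above such genes, with 63.6% against 35.4% in replicate 1 and 68.2% against 37.8% in replicate 2. The pooled summits of the 17 members lay a median of 173 bp from the nearest 5' end, against 248 bp for all 5833 genes with one. Their median rank was 5091, against 4469 for all such genes, and their median signal was 21.7, against 22.8. The members spread widely around these medians, from rank 65 at dhs-12 to rank 11069 at dhs-4, and from 8 bp at dhs-22 to 960 bp at dhs-8.

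**Figure D3:**
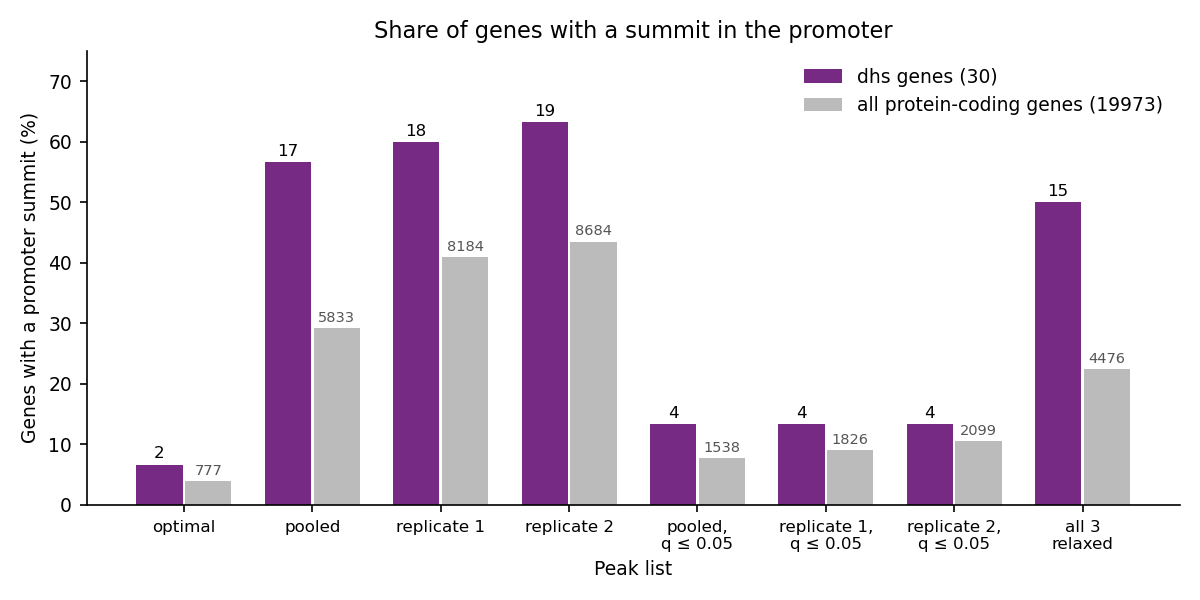
Percent of genes with a promoter summit (vertical axis) in each peak list (horizontal axis), for the 30 dhs genes on the left of each pair and all 19973 protein-coding genes on the right, with the number of genes above each bar. The dhs bars are 6.67% against 3.89% in the optimal list and 56.7% against 29.2% in the pooled list.

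Among the other members the strongest pooled summit was at dhs-3, which encodes a protein of intestinal lipid droplets. It lay 239 bp upstream, ranked 1607 and had a signal of 34.0. It ranked 1536 in replicate 1, with a signal of 25.2 and a q of 0.0114, but 6297 in replicate 2, with a signal of 7.47 and a q of 0.226. The replicates thus placed dhs-3 on different sides of a q of 0.05. The next were dhs-30 (pooled rank 4231, signal 23.3), dhs-28 (rank 4632, signal 22.5), dhs-6 (rank 4696, signal 22.4), dhs-14 (rank 5091, signal 21.7) and dhs-21 (rank 5142, signal 21.6). dhs-28 encodes a peroxisomal enzyme that shortens pheromone side chains, dhs-6 is related to human HSDL2, and dhs-21 encodes L-xylulose reductase. The pooled q of these members ran from 0.352 at dhs-30 to 0.460 at dhs-21, all above 0.05.

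The replicate lists differ in length, and ranks of some weaker summits were far apart between them while others were close. dhs-30 ranked 20456 in replicate 1 and 9929 in replicate 2, dhs-6 ranked 10412 and 3705, and dhs-28 ranked 6224 and 13030. dhs-13 ranked 22043 in replicate 1, near the end of that list, and 2293 in replicate 2. dhs-21 ranked 7356 in replicate 1 and 6659 in replicate 2, and dhs-2 ranked 9192 and 10971. Of the members, 16 of 30 had a promoter summit in both replicate lists, against 27.2% of all protein-coding genes. A promoter summit in a single replicate was found for 5 of 30, against 30.0% of all genes: dhs-8 and dhs-26 in replicate 1, and dhs-1, dhs-19 and dhs-20 in replicate 2. For dhs-8 this rests on the promoter limit, as replicate 2 had a summit 1028 bp upstream, just beyond it. One member, dhs-27, had summits in both replicates and none in the pooled list. For the 15 members with a summit in all 3 relaxed lists, the replicate summits nearest to the pooled one stood 10 to 164 bp apart, with a median of 35 bp.

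The members with no promoter summit in any list were dhs-5, dhs-11, dhs-15, dhs-16, dhs-17, dhs-23, dhs-24, dhs-29 and dhs-31. That is 9 of 30, against 42.5% of all protein-coding genes. They include dhs-16, a hydroxysteroid dehydrogenase of dafachronic acid synthesis, and dhs-17, dhs-24 and dhs-29, whose RefSeq products are retinol dehydrogenases. Their nearest optimal summits lay from 8518 bp away for dhs-17 to 219363 bp away for dhs-24. dhs-14 and dhs-15, which lie close together on chromosome V, differed, with a pooled summit at dhs-14 and none at dhs-15.

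**Figure D4:**
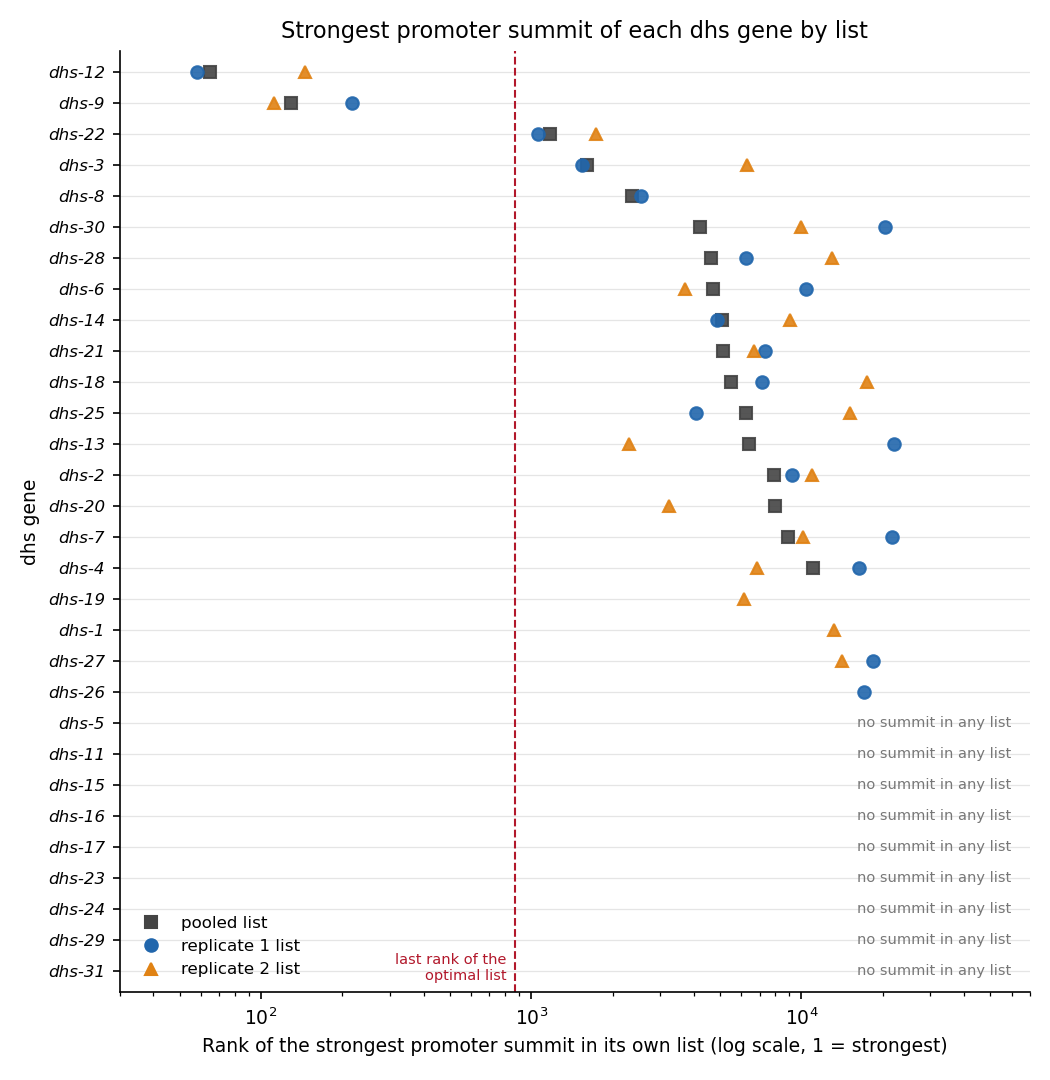
Rank of the strongest promoter summit of each dhs gene within the pooled, replicate 1 and replicate 2 lists (horizontal axis, log scale, rank 1 strongest; lists differ in length), with genes ordered by pooled rank (vertical axis). dhs-12 and dhs-9 are left of the last rank of the optimal list, 872, in each list, and every other point is to the right of it.

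The members were also counted by words in the RefSeq product name, beside the 29.2% of all protein-coding genes with a pooled summit. These words need not give the substrate: dhs-6 and dhs-18 are named only hydroxysteroid dehydrogenase-like. dhs-11, counted as acyl-CoA type, is also named estradiol 17-beta-dehydrogenase 8-like. Of the 5 retinol dehydrogenases, dhs-20 alone had a pooled summit, of rank 8018. Of the 4 steroid-type members 3 had one, dhs-2, dhs-6 and dhs-18, and of the 2 acyl-CoA type members 1 had one, dhs-25, of rank 6212. The remaining 19 members, among them dhs-9 and dhs-12, had 12. None of these classes was tested, and the classes of 2 to 5 genes are too small to be set apart from one another.

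The words were compared over the family as well. Of the 17 strongest pooled member summits, 2 had the full SKN-1 word within 100 bp, those of dhs-9 and dhs-12, against 13.6% of all 13300 nuclear pooled summits. The dhs-12 summit counted here is the upstream one, between gst-2 and gst-4, and the inner dhs-12 summit held no full word. The GATA word was at 10 of the 17, against 29.3% of all, and the stricter PHA-4 word at 4, against 9.35%. The member summits all lie in promoters, while the 13300 are not limited to promoters. Over the 1201 bases around the outermost 5' end, the full SKN-1 word occurred in 15 of 30 members, against 48.9% of all genes, and the GATA word in 25, or 83.3%, against 72.0%. The stricter PHA-4 word occurred in 15 of 30 members, against 33.1%. The share of dhs promoters with the full SKN-1 word was thus near that of all genes.

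Enzymes outside the dhs names were counted for comparison, from lists set by gene name whose products were not checked. Of 21 genes listed as relatives of the short-chain dehydrogenases, not all of them dehydrogenases by name, 20 matched a gene and wwox-1 did not. Among the 20 matched genes, none had an optimal summit in its promoter. Of these 5 had a pooled summit, or 25.0%, near the 29.2% of all protein-coding genes, where the dhs genes stood at 56.7%. In replicate 1 the counts were 7 of these 20 and 18 of 30 dhs genes, against 41.0% of all genes. In replicate 2 they were 11 of 20 and 19 of 30, against 43.5%, so the lists lay closer there than in the pooled list. The strongest was at sdz-8, of rank 2508 and signal 28.9, and the others were at ard-1, gale-1, bre-1 and ger-1. Of 15 alcohol and aldehyde dehydrogenases of other families, 1 had an optimal summit and 8 a pooled one, or 53.3%, while replicate 1 gave 10 and replicate 2 gave 11. The optimal one was at alh-1, an aldehyde dehydrogenase gene, at chrIII:5078155-5078494, with rank 310, a signal of 61.2 and a summit 94 bp upstream of the 5' end. Whether these lists differ from the dhs genes was not tested.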

How the data were processed

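Members and lists were chosen with earlier results of these data known. ChIP-seq peak lists of 2 replicates in build ce11 were used. Per the readmes, relaxed lists were made from alignments plus a file common to both replicates, and the optimal list from the relaxed lists. No source used here names the aligner, peak caller or cutoff, and control data were not used here. The deposited signal is the caller's enrichment per peak, and the deposited −log10 q was turned into q. All 872 optimal peaks are the strongest of the pooled list. The ce10 lists were not used.

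Summits were matched with Ensembl release 115 (WBcel235), and sequence came from the RefSeq genome of that build; no peak passed a chromosome end. C. elegans transcripts are often trans-spliced, so an annotated 5' end need not be where transcription starts. Python 3.11 was used, with matplotlib 3.10.9 for figures, and the counting was tested on simulated data. No test was run. A planned check of protein sequences was not run, and RefSeq product names were used instead. Signal gives no read depth, which is unknown. Promoter limits, 5' end choices, peak strength, q and replicates were varied. Genes are named by rule: members with an optimal summit under any setting, the 6 next by pooled signal, members with no summit, genes sharing a summit and related genes with an optimal summit; others were named after their values were seen, dhs-13, dhs-20 and cysl-2 among them.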

Additional observations from a re-analysis of the deposited data

How the results depend on the processing

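The count of 2 members with an optimal promoter summit was also 2, dhs-9 and dhs-12, under the settings given next, each with its share of all genes. These were the shorter promoter (3.16%), the outermost 5' end only (3.63%) and any overlap of the peak (4.22%). They were also the stronger peaks only, above the median signal (2.06%), and RefSeq 5' ends (3.82%). By nearest protein-coding 5' end the count was 3, dhs-8 being added, against 4.13% of all genes. With promoters of 2000 bp upstream it was 4, through dhs-8 and dhs-22, against 5.12% of all genes. There dhs-22 was reached by the peak of rank 135 at rpoa-12, with pas-1 in between, and not by the summit at its own 5' end. The strongest 872 peaks of replicate 1 and of replicate 2 each gave 2, the same genes, against 3.80% and 3.62% of all genes. The reproducibility filter favours such a match. Kept to q at or under 0.05, the pooled, replicate 1 and replicate 2 counts of 17, 18 and 19 members became 4 in each, by construction from fewer peaks. In the pooled, replicate 1 and replicate 2 lists, promoters of 500 bp gave 16, 17 and 17 members, against 21.8%, 29.6% and 30.5% of all genes, and those of 2000 bp gave 21, 20 and 23, against 38.0%, 53.8% and 57.1%. The full SKN-1 word stood at 2 of 3 optimal member summits with windows of 50, 100 and 200 bp to each side. Among all 870 nuclear optimal summits it stood at 165, 240 and 333 with these windows. The 2 were the dhs-9 summit and the upstream dhs-12 summit, which lies between gst-2 and gst-4. The 3 summits belong to dhs-9 and dhs-12 only, so the word count is not a result about the family. No paired analysis was possible because there is 1 group and no second condition. Depth is unknown, so a missing summit does not show absence of binding.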
